A study of Mus musculus with 24 samples.

Results

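Complexes II, III and IV of the mitochondrial respiratory chain were followed in inguinal subcutaneous white adipose tissue through 32 nuclear genes, looked up by symbol among the 38013 genes that both deposited count tables hold. They comprised the 4 subunits of complex II, 9 subunits of complex III, the electron carrier cytochrome c, 11 genes of complex IV and 7 assembly factors of complex IV. All 32 had the same identifier in both tables and all 32 passed the filter on low counts in every comparison. RNA came from whole fat of C57BL/6J mice transgenic for AMPKγ1, a regulatory subunit of the AMP-activated protein kinase (AMPK). The transgene was wild type in the control animals (WT-Tg) and held the gain-of-function change D316A in the others (D316A-Tg). Each genotype was sampled at 16 weeks of age on chow and at 24 weeks on a 45% high-fat diet (HFD), and each of the 4 groups has 6 libraries. The labels do not name the transgene promoter, the founder line or the sex, and do not state that each library is another animal. The p-values therefore measure a spread between libraries that may be technical.

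AMPK is a heterotrimeric kinase that responds to low cellular energy, and one of its known actions is to promote mitochondrial biogenesis. In the respiratory chain, complex II (succinate dehydrogenase) passes electrons from succinate to ubiquinone, complex III (the cytochrome bc1 complex) passes them from ubiquinol to cytochrome c, and complex IV (cytochrome c oxidase) passes them to oxygen, with complexes III and IV pumping protons. White adipocytes have fewer mitochondria than brown or beige adipocytes, and in brown fat the chain feeds heat production. Most of the subunits are encoded in the nucleus, and complex IV needs dedicated factors that make and insert its heme and copper.

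Promoter sequences are shown for 4 members that hold the core motif of nuclear respiratory factor 1 (NRF1), a transcription factor known to act on respiratory genes. The RefSeq table on build GRCm38.p6 gave a window from 250 bases before to 50 bases after the annotated start for 24 of the 32 members. Capitals mark the motif, searched as GCATGCGC on both strands (reverse complement GCGCATGC); where the capitals run to GCGCATGCGC the forward and reverse matches overlap. In Cycs (chr6:50566520-50566819, minus strand) and Sdhb (chr4:140961021-140961320, plus strand) the motif began 60 and 54 bases before the start. In Uqcrc1 (chr9:108936398-108936697, plus strand) it lay after the start, and in Cox6a1 (chr5:115348909-115349208, minus strand) upstream of it.
Cycs: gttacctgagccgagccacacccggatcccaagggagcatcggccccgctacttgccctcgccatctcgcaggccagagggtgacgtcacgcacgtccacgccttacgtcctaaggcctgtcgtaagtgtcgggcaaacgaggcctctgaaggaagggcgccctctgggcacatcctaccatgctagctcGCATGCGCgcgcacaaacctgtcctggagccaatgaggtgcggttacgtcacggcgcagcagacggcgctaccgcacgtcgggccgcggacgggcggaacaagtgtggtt
Sdhb: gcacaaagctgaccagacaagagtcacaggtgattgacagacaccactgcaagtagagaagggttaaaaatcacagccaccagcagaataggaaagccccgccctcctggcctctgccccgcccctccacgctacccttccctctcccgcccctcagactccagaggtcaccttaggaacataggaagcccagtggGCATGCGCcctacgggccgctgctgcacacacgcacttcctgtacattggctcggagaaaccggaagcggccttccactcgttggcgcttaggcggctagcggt
Uqcrc1: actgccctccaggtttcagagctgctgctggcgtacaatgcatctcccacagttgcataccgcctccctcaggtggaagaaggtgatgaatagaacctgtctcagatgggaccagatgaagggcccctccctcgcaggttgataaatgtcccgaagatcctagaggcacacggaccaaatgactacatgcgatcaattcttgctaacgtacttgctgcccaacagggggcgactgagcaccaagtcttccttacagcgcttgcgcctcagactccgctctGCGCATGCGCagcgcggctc
Cox6a1: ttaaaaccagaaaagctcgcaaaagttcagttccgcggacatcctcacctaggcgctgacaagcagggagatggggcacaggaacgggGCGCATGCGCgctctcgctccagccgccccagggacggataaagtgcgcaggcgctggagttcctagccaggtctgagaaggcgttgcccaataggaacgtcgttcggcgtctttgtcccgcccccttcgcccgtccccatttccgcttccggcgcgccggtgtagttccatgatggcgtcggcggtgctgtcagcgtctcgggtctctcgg
The NRF1 core was present for 5 of the 24 members with a window (20.8%, the fifth is Uqcr11) and in 2.71% of all 32851 promoters of the same length. Members were counted by gene and all promoters by window, so the shares may not have the same basis. The motif of GA-binding protein, searched as CCGGAAGT on both strands, was present in 5 (Cox10, Cox15, Cox8a, Uqcr11 and Uqcrh) and in 3.89% of all. An estrogen-related receptor motif, AAGGTCA, was found in Sdhd (4.72% of all promoters) and a YY1 motif, AAGATGGC, in Cox10 (2.75% of all). The 5 genes with the NRF1 core span complexes II, III, IV and cytochrome c. A motif match is a description of the sequence and not of binding.

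Libraries held 13254536 to 22748132 counts. Levels are CPM, that is counts scaled to a common library size, on one trimmed-mean (TMM) scale for all 24 libraries, and fold changes come from edgeR's quasi-likelihood fit, with a gene termed called where its p, adjusted by Benjamini and Hochberg's method across every gene tested, was under 0.05. Some libraries stood apart by cell content: the mean log2 CPM of 10 B lymphocyte genes exceeded 3 in WT-Tg 1 to 4 and D316A-Tg 8 and 11 on chow, and in WT-Tg 3 and D316A-Tg 7, 8, 9 and 11 on HFD. These are called lymphocyte-rich, and results are given with and without them. Genes of mature adipocytes summed to between 19200 and 84200 CPM over all libraries. In bulk tissue, fewer cells of a type and less RNA per cell cannot be told apart.

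The first comparison asked how the gain-of-function subunit relates to the respiratory genes in chow-fed mice. Subunits of all 3 complexes and cytochrome c were higher in D316A-Tg fat. Of the 32 members, 22 were called higher and 0 lower, against 5.3% of all 15249 genes called higher and 3.25% called lower. Every member had a positive log2 fold change, with a median of 0.93 (range 0.13 to 1.28), while the median of all genes was -0.07. The called members were 3 of 4 subunits of complex II, 9 of 9 of complex III, cytochrome c and 9 of 11 genes of complex IV. None of the 7 assembly factors was called (lowest adjusted p = 0.0749, edgeR).

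Complex II rose with a median log2 fold change of 0.93 over its 4 subunits. Sdha, the flavoprotein that oxidises succinate (chromosome 13, 74322254 to 74350280), lay between 343 and 928 CPM in WT-Tg (median 612) and between 778 and 1584 in D316A-Tg (median 1491). Only the lowest D316A-Tg library was within the WT-Tg range, and the log2 fold change was 1.05 (SE 0.23, adjusted p = 0.0260, edgeR). Sdhd, a membrane anchor that helps to bind ubiquinone (chromosome 9, 50596357 to 50603812), ranged from 127 to 275 CPM (median 203) in WT-Tg and from 252 to 501 (median 448) in D316A-Tg, again with 1 library in the WT-Tg range. Its log2 fold change was 0.98 (SE 0.20, adjusted p = 0.0208). Sdhb, the iron-sulfur subunit, was also called, at 0.88 (SE 0.21). The other membrane anchor, Sdhc (chromosome 1, 171127165 to 171150603), ranged from 109 to 231 CPM and from 165 to 359 CPM, and its log2 fold change of 0.76 (SE 0.23) missed the threshold (adjusted p = 0.0579).

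Complex III was called in whole, with log2 fold changes between 0.82 and 1.20 and a median of 0.99. Uqcrb, the ubiquinone-binding protein (chromosome 13, 66900617 to 66905378), lay between 44.3 and 101 CPM in WT-Tg (median 67.8) and between 90.6 and 180 in D316A-Tg (median 159), which gave 1.00 on the log2 scale (SE 0.20, adjusted p = 0.0208, edgeR). Uqcrh, the hinge protein that contacts cytochrome c1 (chromosome 4, 116066965 to 116075071), went from 181 to 314 CPM (median 254) to 301 to 640 (median 531), or 0.87 on that scale (SE 0.18, adjusted p = 0.0216). In both genes only the lowest D316A-Tg library reached into the WT-Tg range. Uqcrq, a small structural subunit, had the largest fold change of the complex, 1.20 (SE 0.25), and Uqcr11, another small subunit, the highest adjusted p, 0.0407, at 0.99 (SE 0.26). The catalytic genes Cyc1 (cytochrome c1) and Uqcrfs1 (the Rieske iron-sulfur protein) rose by 0.94 and 1.05 on the log2 scale. The core proteins Uqcrc1 and Uqcrc2, which face the matrix, rose by 0.82 and 0.98, and the small subunit Uqcr10 by 1.10.

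Cytochrome c, the soluble carrier between complexes III and IV, had the largest fold change of all members. Cycs (chromosome 6, 50562563 to 50566538) lay between 4.19 and 12.4 CPM in WT-Tg (median 9.12) and between 14.99 and 33.4 CPM in D316A-Tg (median 20.3), without overlap. Its log2 fold change was 1.28 (SE 0.25, adjusted p = 0.0193, edgeR). Most counts from cytochrome c sequence were assigned to other annotated genes in the chow table, as described below; with those added, the log2 fold change was 1.25.

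Complex IV rose in 9 of its 11 genes, by 0.86 to 1.18 on the log2 scale. Cox7b, a small subunit that helps to assemble the complex (chromosome X, 106015700 to 106022450), lay between 125 and 270 CPM in WT-Tg (median 208) and between 299 and 589 in D316A-Tg (median 517). Cox6c (chromosome 15, 35925886 to 35938246), another small subunit, lay between 155 and 339 CPM (median 265) and between 349 and 723 (median 691). In both genes every D316A-Tg library was above every WT-Tg library, and the log2 fold changes were 1.18 (SE 0.20, adjusted p = 0.0136, edgeR) for Cox7b and 1.18 (SE 0.21, adjusted p = 0.0142) for Cox6c. Cox4i1, a regulatory subunit that binds ATP, rose by 0.93, Cox5a by 0.91 and the zinc-binding Cox5b by 0.86. The remaining called genes were Cox6a1 (0.92), Cox6b1 (0.98), Cox7a2 (1.02) and Cox7c (0.93), all of them small nuclear subunits.

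The exceptions within complex IV were Cox8a and Cox7a2l. Cox8a, a small membrane subunit, had a log2 fold change of 0.79 (SE 0.27) that was not called (adjusted p = 0.0792, edgeR). Cox7a2l (chromosome 17, 83501918 to 83517330) encodes a factor that joins complexes III and IV into supercomplexes, and in C57BL/6J mice its protein is known to be a shortened form. It lay between 78.8 and 132 CPM in WT-Tg (median 111) and between 114 and 132 in D316A-Tg (median 127), a log2 fold change of 0.13 (95% confidence interval -0.19 to 0.44, adjusted p = 0.554). Its interval ended below the estimate of every other complex IV gene listed here.

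No assembly factor passed the test on chow. Sco1, a copper chaperone (chromosome 11, 67052670 to 67067070), lay between 8.81 and 14.1 CPM in WT-Tg and between 10.6 and 19 in D316A-Tg, for an estimate of 0.39 on the log2 scale (SE 0.13, adjusted p = 0.0749, edgeR). Cox10, which makes heme O (chromosome 11, 63962627 to 64079468), lay between 13.6 and 18.6 CPM and between 14.4 and 27.4, at 0.38 (SE 0.13, adjusted p = 0.0813). The groups overlapped in both genes. The copper chaperone Sco2 had the highest adjusted p, 0.344, at 0.28 (SE 0.20), with 520 counts over the 12 chow libraries; other genes overlap 91.8% of its exon length, and whether counting used strand is not given in the sources used here. The other 4 were Cox11, a copper chaperone with 48.4% exon overlap (0.39), Cox15, which makes heme A (0.36), Cox17, the copper donor to Sco1 and Sco2 (0.20), and Surf1 (0.20). The 7 log2 fold changes ran from 0.20 to 0.39, with a median of 0.36. Those of the subunits and cytochrome c ran from 0.76 to 1.28 apart from Cox7a2l, whose estimate was below all 7, and the difference between the factors and the subunits was not tested.

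**Figure D1:**
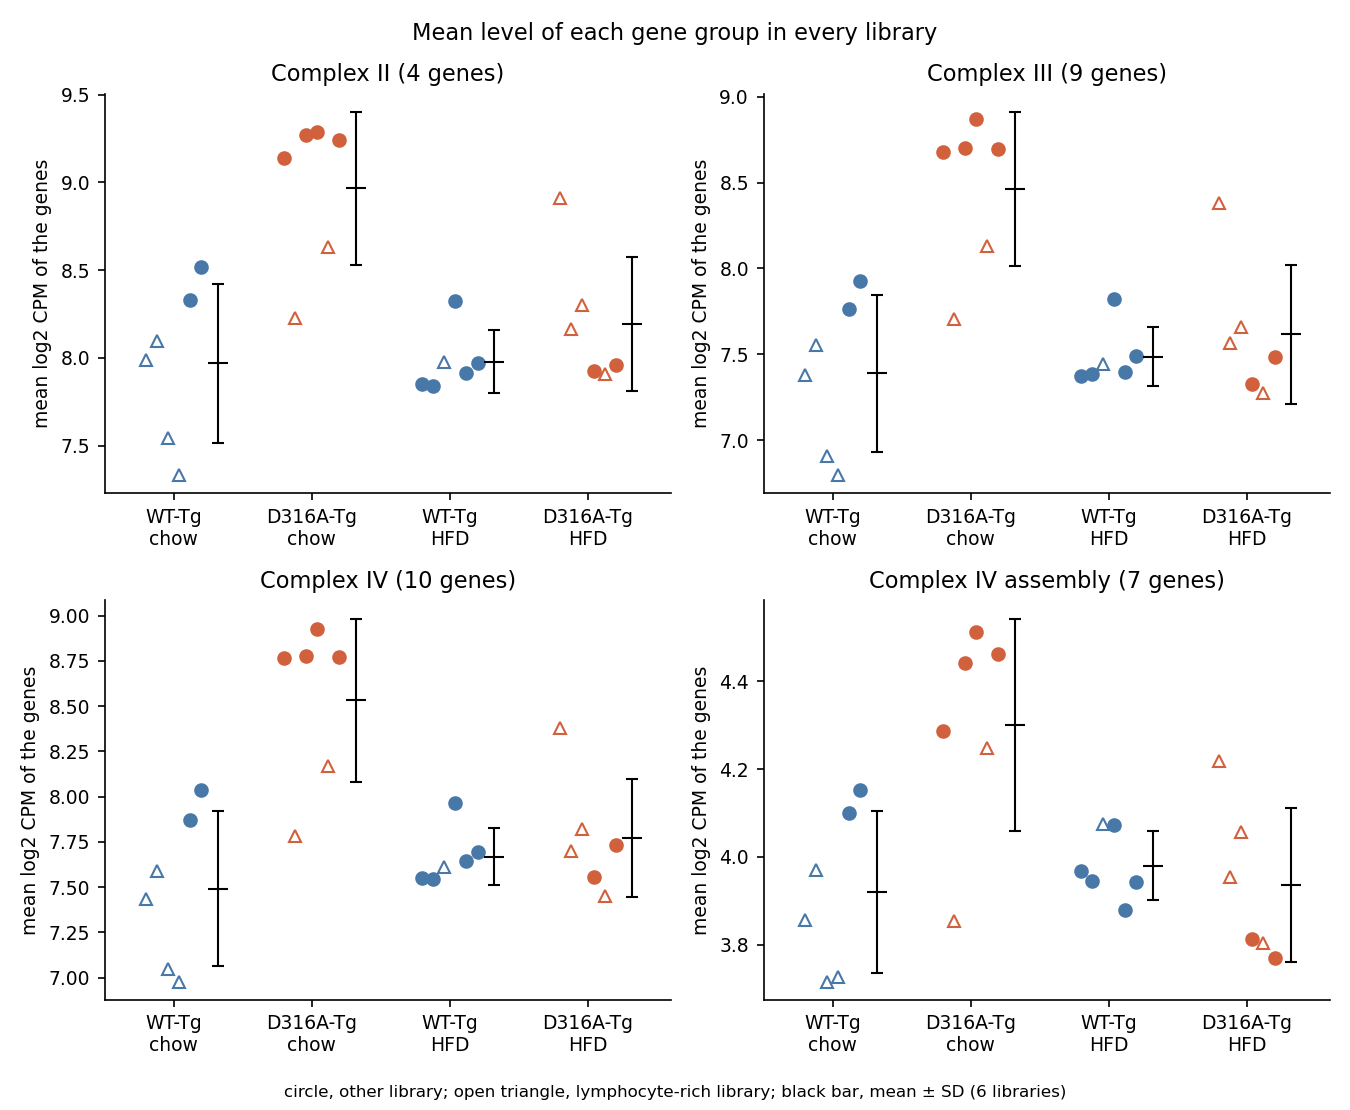
Mean log2 CPM of the genes of complex II, complex III, complex IV (its 10 genes other than Cox7a2l) and the 7 assembly factors in each of the 24 libraries, by genotype and diet; open triangles are lymphocyte-rich libraries, circles the others, and black bars the mean ± SD of 6 libraries. On chow the complex III mean was 7.39 ± 0.455 in WT-Tg and 8.46 ± 0.449 in D316A-Tg, with the triangles low in both groups, and on HFD it was 7.49 ± 0.171 and 7.62 ± 0.402.

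Lymphocyte-rich libraries had lower levels of these genes in both chow groups. The mean log2 CPM of the 32 members was 6.10 to 6.69 in the 4 lymphocyte-rich WT-Tg libraries and 6.81 to 7.21 in the 2 lymphocyte-rich D316A-Tg libraries. In the others it was 6.89 to 7.02 in 2 WT-Tg libraries and 7.61 to 7.78 in 4 D316A-Tg libraries. The lymphocyte-rich libraries thus lay lower in both genotypes, and within either kind of library the D316A-Tg range was above the WT-Tg range.

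Over all 6 libraries a group, 3 members (Cycs, Cox7b and Cox6c) had every D316A-Tg library above every WT-Tg library, against 1.83% of all genes. Within lymphocyte-rich and within other libraries alike, 21 of 32 members had every D316A-Tg library higher, against 9.48% of all genes: 3 of complex II, 8 of complex III, Cycs, 9 of complex IV and 0 assembly factors. Cox7a2l was among the 21, and unlike the other complex IV genes named here it was higher in the lymphocyte-rich WT-Tg libraries than in the others: its median was 115.5 CPM in these and 87.5 in the other 2 WT-Tg libraries, against 132 and 118 in D316A-Tg. Without the lymphocyte-rich libraries 23 members were called, with a median log2 fold change of 0.81, and with a term for them 25, with a median of 0.70. The share of all genes called in these fits is not given here.

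Other cell content moved with the chow groups as well. The 10 B lymphocyte genes summed to 4.04 to 1830 CPM in WT-Tg but from 2.51 to 1360 in D316A-Tg, with 0 of 10 called. The 14 mature adipocyte genes summed to 19200 to 57700 and 24500 to 84200 CPM, with 0 called and 13 positive. The 12 brown and beige adipocyte genes summed to 142 to 820 and 927 to 1770 CPM, with 4 called higher. That list holds Cox8b and Cox7a1, isoforms of complex IV subunits, so it is not independent of the complex IV isoforms compared below. The 22 contractile genes of skeletal muscle summed to 59.8 to 12300 and 52.3 to 653 CPM (0 of 18 tested called), the 12 macrophage genes to 598 to 2820 and 355 to 1920 CPM (0 called), and the 9 endothelial genes to 507 to 1010 and 346 to 630 CPM (2 called lower). No listed marker was at 0 in all libraries of a group. When each library's muscle score was a covariate, the members' median was 0.96 and 1 member was called. With the adipocyte score as a covariate the median was 0.63 and 24 were called. The share of all genes called in these 2 fits is not given here, so a change in count may not be particular to the members. The part of brown and beige adipocytes, macrophages and endothelium in the members' levels was not tested.

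Most chow calls did not hold in every fit that left out 1 library. Of the 22 called members, Cox7b and Cox6c passed with each library left out. Their highest adjusted p (edgeR) was 0.0468 for Cox7b and, for Cox6c, a value at the threshold that rounds to 0.05. The other 20 were lost in at least 1 such fit (highest adjusted p = 0.106), at log2 fold changes of 0.71 to 1.39. The count of called members was 9, 12, 3 and 7 without WT-Tg 1, 2, 3 and 4, and 2, 2, 4 and 2 without D316A-Tg 7, 9, 10 and 12, while the members' median stayed between 0.84 and 1.02. Shares of all genes called are not set beside these counts.

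Genes around these complexes were measured in the same chow fit. Of 36 subunits of complex I, 26 were called higher (median log2 fold change 0.88), and of 15 subunits of complex V 10 were (0.74); none of either was called lower. The mitochondrial genome's own subunits of complexes III and IV were called higher in 3 of 4 genes (0.98). Of 27 other assembly factors of complexes II to IV that were tested, 10 were called higher (0.58). Ndufa4, now counted as a complex IV subunit, rose by 1.00 on the log2 scale (SE 0.23, adjusted p = 0.0272, edgeR).

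On HFD the comparison of genotypes gave 0 calls among the 32 members, against 4.51% of all 14649 genes called higher and 3.96% called lower. The median log2 fold change was 0.14 (range -0.26 to 0.43) beside 0.01 for all genes, and 23 of 32 were positive. At an unadjusted p under 0.05 there were 2 members in edgeR, Surf1 and Cox11, and DESeq2 called 0 and limma voom 1 at the adjusted threshold. The median was -0.03 without D316A-Tg 7, -0.07 once lymphocyte-rich libraries were left out, and -0.21 when the fit held the muscle score. On this diet the groups overlapped in all 32 members. The share of all genes that overlapped on HFD is not given here, so this may not be particular to the members.

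Complex II held the members with the highest estimates on HFD. Sdha lay between 508 and 772 CPM in WT-Tg (median 567) and between 581 and 1231 in D316A-Tg (median 710), a log2 fold change of 0.39 (95% confidence interval -0.0018 to 0.77, adjusted p = 0.165, edgeR). Sdhb lay between 149.5 and 225.5 CPM and between 160 and 427, at 0.43 (-0.04 to 0.90, adjusted p = 0.196). In both, D316A-Tg 7 was the highest library. Sdhc was at 0.03 (-0.24 to 0.29), and its libraries spanned 184 to 243 CPM and 168 to 292.

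In complex III the HFD log2 fold changes ran from 0.02 to 0.25. Uqcr11 lay between 106 and 140.5 CPM in WT-Tg (median 117) and between 111 and 201.5 in D316A-Tg (median 133), at 0.23 (95% confidence interval -0.04 to 0.50, adjusted p = 0.230, edgeR). Uqcrc2 was at 0.25 (-0.20 to 0.71), between 244 and 361 CPM and between 232 and 582. For Uqcrq, at 0.02, the interval of -0.32 to 0.36 lay below its chow interval of 0.65 to 1.75. Cycs had a log2 fold change of -0.19 (-0.62 to 0.23), with libraries between 136 and 205 CPM in WT-Tg and between 91.2 and 232 in D316A-Tg.

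Complex IV and its assembly factors were as close between genotypes. Cox6c lay between 176 and 268 CPM in WT-Tg (median 202) and between 212 and 425 in D316A-Tg (median 238), at a log2 fold change of 0.33 (95% confidence interval -0.03 to 0.69, adjusted p = 0.197, edgeR). Cox7c was at 0.14 (-0.10 to 0.39) and Cox7a2l at -0.03 (-0.28 to 0.23). Of the assembly factors, Surf1, at 0.18 (SE 0.07, adjusted p = 0.120), ranged from 45.4 to 53.3 CPM and from 50.04 to 66.7 CPM. Cox11, at -0.26 (SE 0.11, adjusted p = 0.141), ranged from 9.27 to 10.9 CPM and from 7.27 to 11.6 CPM, and Sco1 was at -0.07 (SE 0.12).

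D316A-Tg 7 had the highest mean log2 CPM of the 32 members on HFD, 7.47, while the other 5 D316A-Tg libraries were at 6.62 to 6.93 and WT-Tg at 6.70 to 7.07. The same library had the highest scores on HFD for muscle (7.27) and brown and beige adipocyte genes (6.33), as mean log2 CPM. The brown and beige list includes Cox8b and Cox7a1 of complex IV. Over the HFD groups the muscle genes summed to 61.5 to 294 CPM in WT-Tg but from 313 to 25200 in D316A-Tg, with 18 of 18 tested called higher. The other lists on HFD had 0 of 10 B lymphocyte, 3 of 14 mature adipocyte and 0 of 12 brown and beige genes called higher, and 4 of 12 macrophage and 4 of 9 endothelial genes called lower. The part of these lists in the HFD levels, other than by the alternatives given here, was not tested.

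**Figure D2:**
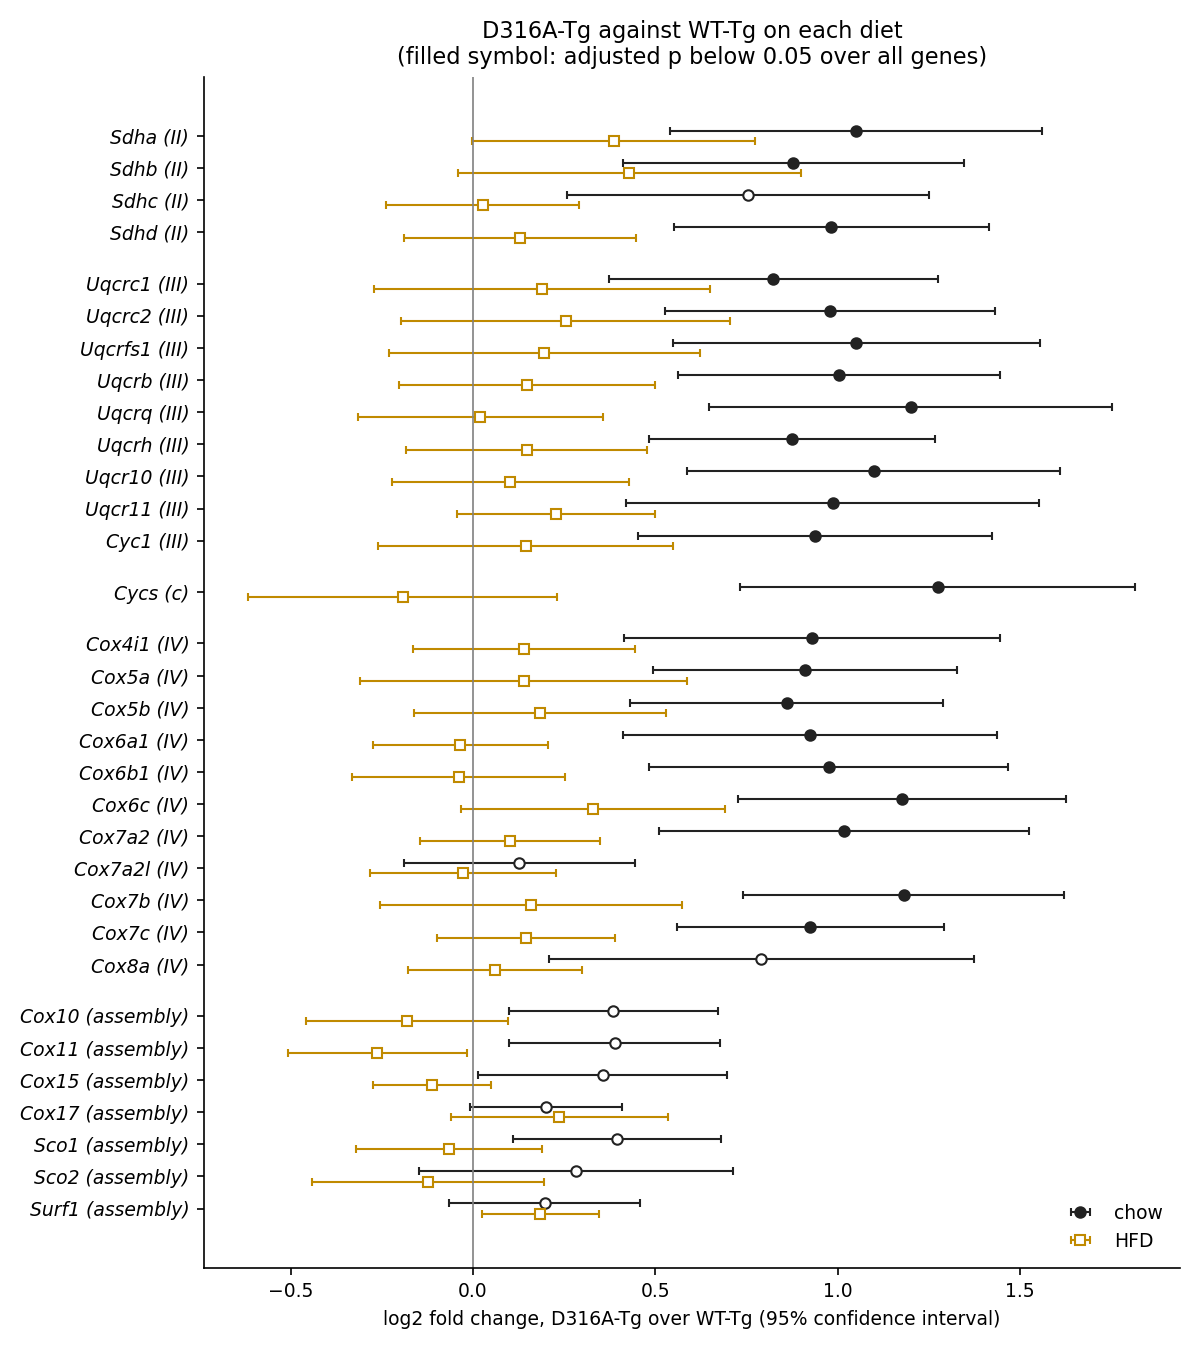
Log2 fold change of D316A-Tg over WT-Tg with its 95% confidence interval for the 32 members, on chow (black circles) and HFD (yellow squares), grouped by complex; filled symbols were called over all genes. On chow 22 symbols are filled and all 32 are right of 0, with Cox7a2l and the assembly factors nearest to it, while on HFD none is filled.

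How far the D316A effect differed between the diets was tested in one fit of all 24 libraries. Age, count table and the version of the base-calling conversion software change together with diet. They cannot be told apart from diet in this difference. The effect was lower on HFD than on chow in 13 of 32 members and higher in 0, against 6.86% and 6.08% of 16072 genes. The members' median difference was -0.73 on the log2 scale (range -1.46 to 0.05), beside 0.07 for all genes. The 13 were Sdhd of complex II, Uqcrb, Uqcrq, Uqcrh and Uqcr10 of complex III, Cycs, Cox6a1, Cox6b1, Cox6c, Cox7a2, Cox7b and Cox7c of complex IV, and the assembly factor Cox11. Over the 24 fits with 1 library left out, the calls of Uqcrh, Cox6c and Uqcrb were lost in 19, 18 and 16. Those of Sdhd, Cox7a2 and Uqcr10 were lost in 3, 2 and 1, and the others in none.

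Cycs differed by -1.46 (SE 0.32, adjusted p = 0.00719, edgeR). The lowest p-values of complex III were those of Uqcrq, at -1.17 (SE 0.30, adjusted p = 0.0161), and Uqcr10, at -0.99 (SE 0.28, adjusted p = 0.0260). In complex IV they were those of Cox6b1, at -1.003 (SE 0.26, adjusted p = 0.0177), and Cox7c, at -0.77 (SE 0.20, adjusted p = 0.0184). In complex II, Sdhd differed by -0.84 (SE 0.25, adjusted p = 0.0304), while Sdhc, at -0.72 (adjusted p = 0.0694), and Sdhb, at -0.44 (adjusted p = 0.328), were not called. The catalytic subunits Sdha, Uqcrfs1 and Cyc1 were not called either, at -0.65, -0.84 and -0.78. Among assembly factors Cox11 differed by -0.64 (SE 0.17, adjusted p = 0.0177), Cox10 was at -0.55 (adjusted p = 0.0534) and Surf1 at 0.00. Cox7a2l was at -0.14 (SE 0.19) and Uqcrc1, the highest p in complex III, at -0.62 (adjusted p = 0.161).

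The number of calls in this test varied with how the fit treated cell content. The share of all genes called in these fits is not given here, so a change in count may not be particular to the members. The members called were 1 with a term for lymphocyte-rich libraries (median difference -0.57) and 25 without those libraries (-0.93). With the muscle score as a covariate they were 0 (-0.99), and the median stayed negative in each fit. The skeletal muscle genes differed in the other direction, with 16 of 20 tested called higher. On chow 4 WT-Tg and 2 D316A-Tg libraries were lymphocyte-rich, and on HFD 1 and 4.

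Levels on HFD were then set beside those on chow within each genotype. Diet, age, count table and the version of the base-calling conversion software change together between these groups and cannot be told apart, and the comparisons share libraries with those above. In WT-Tg 6 members were called higher and 5 lower, against 25.9% and 34.5% of all genes, and the median log2 fold change was -0.11 (all genes -0.13). In D316A-Tg 2 were called higher and 22 lower, against 17.9% and 19.3%, and the median was -0.78 (all genes -0.02). By group, the D316A-Tg calls in the lower direction were 4 of 4 in complex II, 6 of 9 in complex III, 8 of 11 in complex IV and 4 of 7 assembly factors. Cell markers moved with the diets too. Of 20 skeletal muscle genes tested, 16 were called lower on HFD in WT-Tg and 15 higher in D316A-Tg. Of 12 macrophage genes 6 were called higher in WT-Tg and 1 in D316A-Tg, and of 12 brown and beige genes 3 were called higher and 2 lower in WT-Tg and 4 lower in D316A-Tg. With the muscle score as a covariate, the members' median from chow to HFD was -0.008 in WT-Tg (9 called) and -0.94 in D316A-Tg (23 called). The part of macrophages and of brown and beige adipocytes in the members' diet contrasts was not tested.

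Examples of the lower direction in D316A-Tg were Cox7b, from a median of 517 CPM on chow to 133 on HFD (log2 fold change -1.62, SE 0.20, adjusted p = 1.1e-06, edgeR), and Uqcrq, from 454 to 126 CPM (-1.52, SE 0.22, adjusted p = 7.1e-06). Uqcr10 was at -1.51 (SE 0.20), Sdhd at -0.88 (SE 0.18) and Sdhb at -0.92 (SE 0.22). The highest p-values in D316A-Tg were those of Sdhc for complex II, at -0.53 (adjusted p = 0.0283), and Cox5b for complex IV, at -0.23 (adjusted p = 0.359). In WT-Tg, Cox7b was at -0.62 (SE 0.20, adjusted p = 0.0118) and Uqcr10 at -0.53 (SE 0.20, adjusted p = 0.0275), while Sdhb, at -0.48, Sdhc, at 0.19, Sdhd, at -0.03, Cyc1, at -0.01, and Cox8a, at -0.05, were not called. Cox17 was lower in both genotypes, at -1.23 (SE 0.12) in WT-Tg, where its libraries went from 21.8 to 27.4 CPM on chow to 9.79 to 12.97 on HFD, and -1.18 (SE 0.12) in D316A-Tg. Cox10 was higher in WT-Tg, at 0.54 (SE 0.13, adjusted p = 0.00158), and at -0.01 in D316A-Tg, and Cox11 was at 0.10 (adjusted p = 0.488) in WT-Tg and lower in D316A-Tg, at -0.54 (adjusted p = 0.00099).

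Cycs and Cox7c went the other way, and both depended on annotated copies of the gene. On the log2 scale Cycs was 4.13 higher on HFD in WT-Tg and 2.67 higher in D316A-Tg, and Cox7c 2.39 and 1.62 higher. Annotated genes with at least 95% identity over at least 50% of the coding sequence, mostly processed pseudogenes, held 91.5% of the counts on Cycs and its 4 copies in the chow table and 2.73% in the HFD table. For Cox7c and its 2 copies these shares were 86.2% and 5.21%, for Uqcrb and its 3 copies 58.0% and 3.51%, and for Uqcr11 and its 2 copies 28.2% and 3.52%. Cox7a2l (21% and 9.36%) and Cox6c (10.3% and 0.840%) differed in the same direction. The count table and the diet cannot be told apart in these shares.

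With the counts of the copies added, the diet contrasts of Cox7c and Uqcrb in both genotypes, Cycs in D316A-Tg and Uqcr11 in WT-Tg changed sign. Uqcr11 in WT-Tg went from 0.29 to -0.12 and was called in neither fit. With the copies, Cycs in WT-Tg stayed higher on HFD by less. Cycs was then at 102 ± 39.2 CPM (SD, n = 6) in WT-Tg on chow, 255 ± 65.4 in D316A-Tg on chow, 160 ± 26.0 in WT-Tg on HFD and 141.5 ± 51.4 in D316A-Tg on HFD. Its log2 fold change from chow to HFD was 0.58 in WT-Tg (SE 0.23, adjusted p = 0.0321, edgeR) and -0.85 in D316A-Tg (SE 0.23, adjusted p = 0.00513). Cox7c was at -0.41 and -1.16, and Uqcrb, which had been at 0.88 and 0.04, at -0.34 and -1.16. The chow genotype effects of Uqcrb and Cox7c were 0.98 and 0.90 with the copies and 1.00 and 0.93 without, and Cycs differed between diets by -1.43 (SE 0.32). Over all members, 27 were then called in D316A-Tg and 12 in WT-Tg, against 24 and 11 without the copies. In the fit without the copies 5975 and 9709 of all 16072 genes were called. The share of all genes called with the copies added is not given here.

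**Figure D3:**
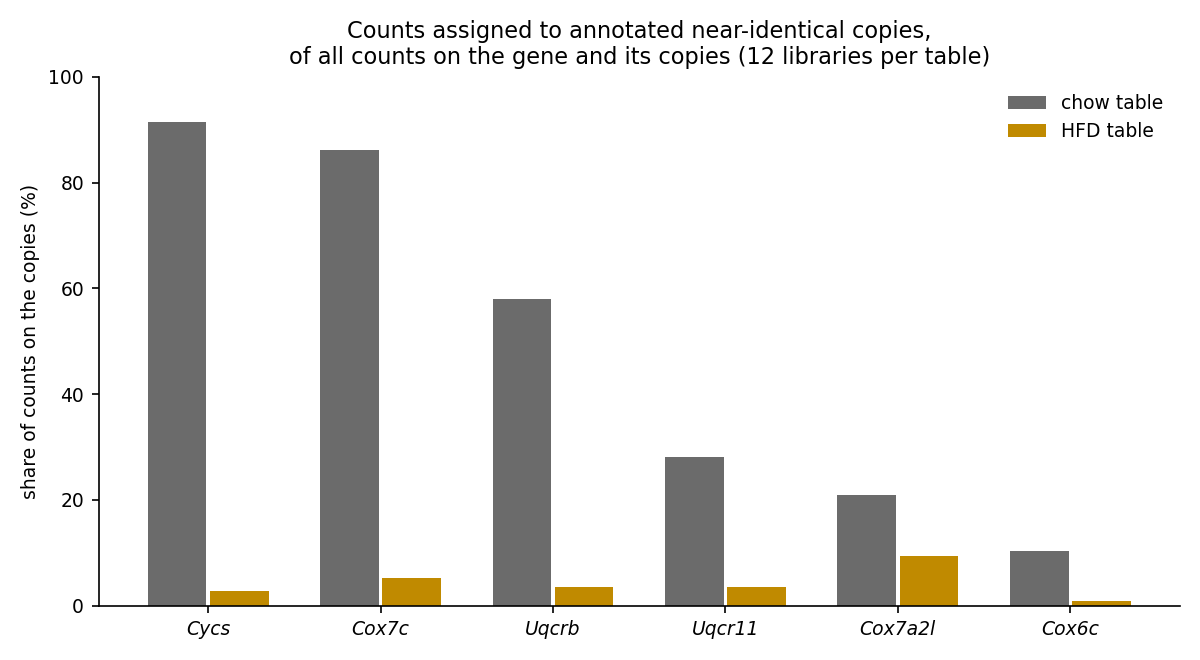
Share of counts, in percent, that were assigned to annotated near-identical copies out of all counts on the gene and its copies, summed over 12 libraries, in the chow table (grey) and the HFD table (yellow). The shares in the chow table ranged from 10.3% for Cox6c to 91.5% for Cycs and were higher than in the HFD table for all 6 genes drawn.

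Levels per kilobase of annotated exon ordered the members within WT-Tg on chow. The length is that of the merged exons of all annotated transcripts, for instance 0.619 kb for Cox8a and 5.77 kb for Cox17. The order therefore depends in part on annotation. The highest were Cox8a at 678 CPM per kb, Cox6a1 at 397, Cox6b1 at 379 and Cox4i1 at 342, all of complex IV. Complex III ran from 62.2 (Uqcrc1) to 280 CPM per kb (Uqcr10) and complex II from 51.2 (Sdhc) to 161 (Sdhd). Assembly factors ran from 1.88 (Sco2) to 34.9 CPM per kb (Surf1). Cycs and Cox7c, at 2.49 and 15.4, lay within the range of the assembly factors, with the counts on their copies not included. The same 4 complex IV genes were at 1234, 792, 785 and 686 CPM per kb in D316A-Tg on chow.

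Tissue-restricted isoforms of complex IV were compared with the common isoform of the same subunit as log2 ratios of CPM in each library. Cox4i2 is the isoform of lung and of oxygen sensing, and Cox6a2, Cox7a1 and Cox8b are those of heart and skeletal muscle, Cox7a1 and Cox8b also of brown fat. The common isoforms had chow log2 fold changes of 0.93 (Cox4i1), 0.92 (Cox6a1), 1.02 (Cox7a2) and 0.79 (Cox8a). A chow difference in a ratio can thus come from either isoform. Two-sided exact permutation tests over the 924 splits of 6 against 6 libraries were adjusted over the 8 tests.

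Cox4i2/Cox4i1 was lower in D316A-Tg on chow. Cox4i2 itself lay between 2.73 and 3.89 CPM in WT-Tg and between 1.82 and 2.66 in D316A-Tg, without overlap. The log2 ratio ran from -7.91 to -6.56 in WT-Tg and from -9.46 to -7.84 in D316A-Tg, a difference of -1.51 (exact p = 0.00433, adjusted p = 0.0173), with 5 of the 6 D316A-Tg values below every WT-Tg value. On HFD the difference was -0.57 (exact p = 0.0736, adjusted p = 0.0981).

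Cox6a2/Cox6a1 went in opposite directions on the diets. The difference in log2 ratio was -3.45 on chow (exact p = 0.0108, adjusted p = 0.0289) and 2.62 on HFD (exact p = 0.00433, adjusted p = 0.0173). Cox6a2 lay between 0.890 and 17.1 CPM in WT-Tg and 0 and 2.22 in D316A-Tg on chow, and between 0.397 and 1.805 and 1.35 and 36.7 on HFD. The skeletal muscle genes moved the same way, with median sums of 995 and 143 CPM on chow and 129 and 1890 CPM on HFD for WT-Tg and D316A-Tg, and their part in this ratio was not tested. The chow result did not pass without WT-Tg 4, 5 or 6 (highest adjusted p = 0.0577, exact).

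Cox8b/Cox8a was higher in D316A-Tg on chow by 0.95 (exact p = 0.0152, adjusted p = 0.0303), and by 1.08 on HFD (exact p = 0.0520, adjusted p = 0.0831). Cox8b ranged from 29.8 to 117 CPM in WT-Tg and from 121.5 to 419 in D316A-Tg on chow, without overlap, and from 18.2 to 76.1 and 31.2 to 274 on HFD. The chow result did not pass in 8 of 12 fits with a library left out (highest adjusted p = 0.0736, exact), and the HFD result passed without WT-Tg 4 or D316A-Tg 12. Cox7a1/Cox7a2 differed by 0.74 on chow (exact p = 0.178, adjusted p = 0.203) and 0.55 on HFD (exact p = 0.489), and the groups overlapped on both diets.

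**Figure D4:**
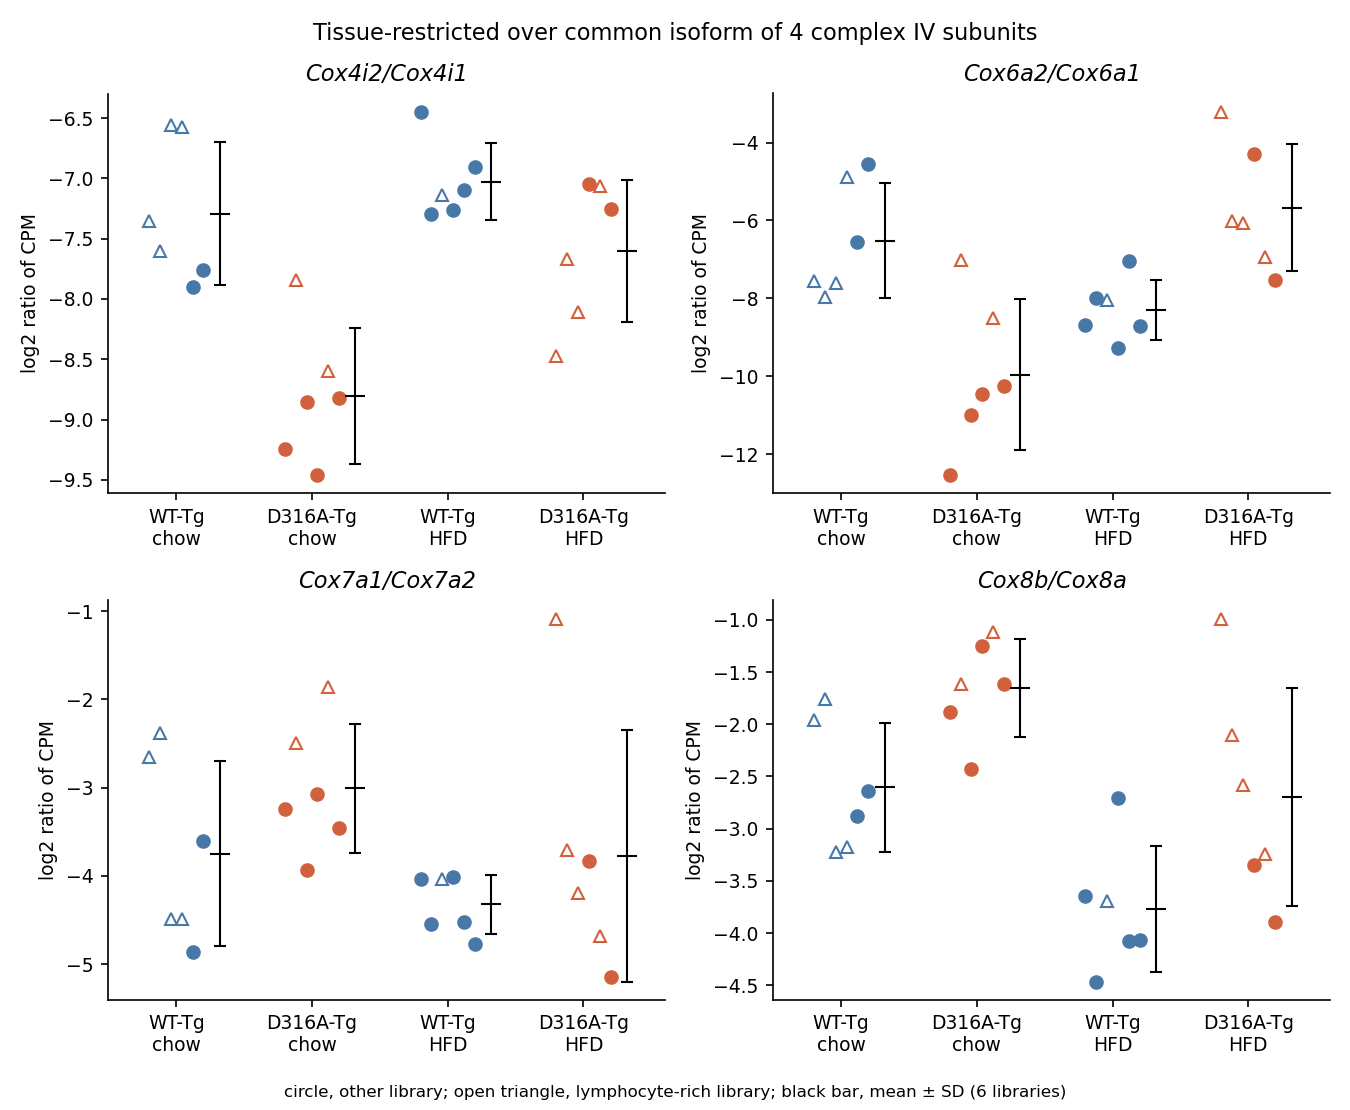
Log2 ratio of CPM of the tissue-restricted over the common isoform for 4 complex IV subunits in each of the 24 libraries; open triangles are lymphocyte-rich libraries, circles the others, and black bars the mean ± SD of 6 libraries. On chow Cox4i2/Cox4i1 was lower in D316A-Tg by 1.51, and Cox6a2/Cox6a1 was lower on chow and higher on HFD.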

How the data were processed

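The values are whole-number read counts per gene, deposited by the authors in one table for chow and one for HFD. Per the submitters' processing notes, STAR 2.4.1, bcl2fastq, FastQC, DESeq2 and the mm10 build were used; for the counting tool, annotation and strand setting, none is given in these sources. The 32 members and the other gene lists were chosen with earlier results of these data known. Counts were tested with edgeR 4.0.16 in R 4.3.3 (TMM, filterByExpr, robust quasi-likelihood), within each diet or over all 24 libraries on genes in both tables, joined by identifier. Alternatives used limma 3.58.1 (voom) and DESeq2 1.42.0. Counts of called members in alternative fits are given without the share of all genes called in the same fit. Such counts therefore do not set the members apart from other genes. In each comparison the text names the 2 members of each complex with the lowest p and the 1 with the highest, Cycs, and others briefly. Isoform ratios used a prior count of 2 and exact permutation with scipy 1.17.1. Gene positions and exon lengths came from GENCODE on GRCm38, and copies of coding sequences from blastn 2.17.0. The scripts were tested on simulated data. Replicate libraries differed by more than sampling noise (chi-square per degree of freedom at least 13.5). Alternatives are given in the closing section; adding the counts of near-identical copies, a term for lymphocyte-rich libraries and a fit of those libraries alone were chosen after seeing the data.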

Additional observations from a re-analysis of the deposited data

Results flagged for a closer look

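In groups of 6 libraries, Dixon's ratio marked a library whose gap to its nearest neighbour was large for the range of the group. It did so in 19 of 144 groups tested. Of these, 9 were the high value of WT-Tg 4 on HFD: Sdhc 243 CPM, Uqcrc1 398, Uqcrc2 361, Uqcrfs1 284, Uqcrq 175 (174.994), Cycs 205, Cox4i1 620.0, Cox6a1 316.4 and Cox7a2 201 CPM. A further 8 were the high value of D316A-Tg 7 on HFD: Sdhc 292 CPM, Uqcrc1 657, Uqcrfs1 434, Uqcrb 247, Uqcrh 361, Cox5a 285, Cox6c 425 and Cox7b 276 CPM. In D316A-Tg 7 the log2 ratio Cox7a1/Cox7a2 was -1.085 against -5.15 to -3.71 in the other libraries of the group, and this library also had the highest muscle score on HFD, whose part was not tested. In D316A-Tg 9 on HFD, Cox15 was 49.7 CPM against 38.0 to 41.6 in the others.

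The D316A effect differed between the diets in 13 members by the test of the difference itself (edgeR, one fit of 24 libraries). On the log2 scale, in the fit without such terms, the effect on HFD minus that on chow was -0.842 for Sdhd, -0.845 for Uqcrb, -1.169 for Uqcrq, -0.715 for Uqcrh and -0.986 for Uqcr10. It was -1.457 for Cycs, -0.948 for Cox6a1, -1.003 for Cox6b1, -0.835 for Cox6c, -0.904 for Cox7a2, -1.008 for Cox7b, -0.770 for Cox7c and -0.638 for Cox11.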

How the results depend on the processing

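The positive chow median kept its direction in every alternative run. Counts of calls moved with the terms and the libraries in the fit, and the causes were not tested. Members called on chow were 1 when the muscle score was a covariate and 1 in lymphocyte-rich libraries alone, and on HFD 1 by voom. For the difference between diets the count was 22 by DESeq2, 28 by voom (median -1.09), 8 with no filter, 1 with the B lymphocyte score (median -0.47), 0 with the muscle score (-0.99), 25 with the adipocyte score (-0.62), 25 without lymphocyte-rich libraries (-0.93) and 1 with a term for them (-0.57), against 13 and -0.73 as reported. From chow to HFD in WT-Tg it was 18 by voom (median reversed to 0.036), 6 with no filter and 21 without lymphocyte-rich libraries (median -0.42); in D316A-Tg the median was -1.32 without them. The HFD genotype median reversed to -0.21 with the muscle score, -0.074 without lymphocyte-rich libraries and -0.03 without D316A-Tg 7. Uqcrb from chow to HFD in D316A-Tg reversed to -0.40 without lymphocyte-rich libraries. With copies added, reads on copies are counted. WT-Tg then reversed to -0.34 (Uqcrb), -0.41 (Cox7c) and -0.12 (Uqcr11, called in neither fit). D316A-Tg reversed to -1.155 (Uqcrb), -0.85 (Cycs) and -1.16 (Cox7c). Without lymphocyte-rich libraries the genotype differences of the tissue isoform log ratios of complex IV, Cox6a2/Cox6a1 on chow, were -5.52, and those of Cox4i2/Cox4i1 on chow, Cox6a2/Cox6a1 on HFD and Cox8b/Cox8a on chow -1.265, 2.44 and 0.965, too few libraries to pass.

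Leaving out each library gave 2 to 27 calls on chow (median 0.84 to 1.02), 0 to 1 on HFD (-0.03 to 0.20), 7 to 25 for the difference (-0.90 to -0.65), 9 to 13 in WT-Tg (-0.17 to -0.001) and 22 to 26 in D316A-Tg (-0.96 to -0.72). For the difference the count was 8, 23 and 21 without WT-Tg 3, 5 and 6 on chow, 25 without D316A-Tg 8 on chow, and 22 and 7 without D316A-Tg 7 and 11 on HFD. Isoform differences ran from -1.70 to -1.365 (Cox4i2/Cox4i1, chow), -0.69 to -0.40 (HFD), -4.04 to -2.93 (Cox6a2/Cox6a1, chow), 2.13 to 2.99 (HFD), 0.51 to 1.01 (Cox7a1/Cox7a2, chow), 0.01 to 0.82 (HFD), 0.83 to 1.12 (Cox8b/Cox8a, chow) and 0.74 to 1.32 (HFD). Same-numbered libraries of the diets deviated with correlations of -0.365 to 0.609 over 12 pairs, 4 of them best with their own number, so the numbers were not taken as pairs. With the replicate block 11 members were called for the difference, 10 in WT-Tg and 23 in D316A-Tg. No paired analysis was possible within a diet because the genotypes share no replicate numbers.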
